A study of Mus musculus with 24 samples.

Results

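The mouse carbonic anhydrases examined here were 10 genes (Car2, Car4, Car5b, Car7, Car8, Car10, Car11, Car12, Car14 and Car15), taken by their Ensembl identifiers from the 55471 genes in the table of hippocampal RNA-seq counts. The set was chosen by family name with the group levels of earlier results in view, and Car7 and Car12 were selected on their CPM differences between genotypes and housings in these mice, so their values are given as a description without a test, whereas the other 8 genes were tested. Hippocampal RNA came from 12 female C57BL/6 mice (C57BL/6J in the study's methods) of 3-6 months, 3 in each of 4 groups. Controls and CBP-ifKOs (the inducible forebrain knockout of CBP, encoded by Crebbp) came from the same litters and lived either in standard cages (SC) or in an enriched environment (EE). CBP-ifKOs carried floxed Crebbp alleles and the Camk2a-creERT2 transgene, whereas controls lacked the transgene, and mice of all 4 groups received tamoxifen in 5 administrations of a 20 mg/mL solution. The Camk2a promoter drives the recombinase in excitatory forebrain neurons, and recombined cells make a truncated CBP without acetyltransferase activity, so the tissue measured also contained glia, vessels and interneurons with intact CBP. Fewer cells of a type and less RNA per cell cannot be told apart in such bulk samples.

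Carbonic anhydrases catalyze the reversible hydration of CO2 to bicarbonate and a proton, and so set how fast pH is buffered inside cells and in the extracellular space. The catalytic members differ in where they act. Car2 and Car7 are cytosolic enzymes, Car5b is mitochondrial, and Car4 (anchored to the membrane by a lipid), Car12, Car14 and Car15 face the outside of the cell. In neurons, Car7 is known for supplying the bicarbonate that leaves through open GABA-A receptor channels. Car8, Car10 and Car11 lack catalytic activity: Car8 binds the inositol trisphosphate receptor Itpr1, and Car10 and Car11 are secreted or surface ligands of neurexins.

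All 10 members passed the filter on low counts in each comparison, and their counts ranged from 65 to 110 for Car15 and from 4401 to 7128 for Car2. Library totals were 26874015 to 27971488 counts in controls and 28582210 to 37448388 in CBP-ifKOs. Every one of the 148570 nonzero counts of the 6 CBP-ifKO libraries was even, whereas 86334 of 158233 were odd in the 6 control libraries. The CBP-ifKO counts may thus be doubled, and halved they totaled 14291105 to 18724194, so the larger totals cannot be read as deeper sequencing. Why they are even was not tested. With halved counts no member's call changed, but halving only rescales the counts. Evenness coincides with genotype, so an effect of its source cannot be told apart from an effect of genotype. The log2 fold change of Crebbp, CBP-ifKO minus control, was -0.58 ± 0.06 (standard error, SE) in SC and -0.64 ± 0.06 in EE, with adjusted p-values of 5.42e-04 and 4.07e-04 by edgeR's quasi-likelihood test. The library of control EE mouse 1 stood apart in 12 choroid plexus markers, whose summed level was 3755 TPM (transcript abundance scaled by gene length and library), against 35.7 to 140 TPM in the other 11 mice. Differences of Car2, Car12 and Car14 that involve this mouse are given with and without it.

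The 3 members whose groups separated by genotype in both housings, Car12, Car7 and Car4, lie on different chromosomes and none shares exonic sequence with another gene. In GRCm38, Car12 (ENSMUSG00000032373) lies at chr9:66713686-66766845, Car7 (ENSMUSG00000031883) at chr8:104534689-104550343 and Car4 (ENSMUSG00000000805) at chr11:84957786-84966044, each on the plus strand. Their promoters are printed because CBP is a coactivator of CREB, whose binding site is the cAMP response element. Each sequence is the plus strand of GRCm38.p6 from RefSeq, 300 bases long, from 250 bases before the annotated start of transcription to 50 bases from it on. The windows are chr9:66713436-66713735 for Car12, chr8:104534450-104534749 for the first of 3 annotated starts of Car7, and chr11:84957504-84957803 for Car4. Capitals mark the motif matches described after them.
Car12: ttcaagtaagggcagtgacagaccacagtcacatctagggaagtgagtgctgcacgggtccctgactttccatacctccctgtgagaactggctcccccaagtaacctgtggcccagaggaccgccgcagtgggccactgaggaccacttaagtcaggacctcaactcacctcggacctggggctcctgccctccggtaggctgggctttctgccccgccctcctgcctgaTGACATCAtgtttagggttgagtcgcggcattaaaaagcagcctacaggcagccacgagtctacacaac
Car7: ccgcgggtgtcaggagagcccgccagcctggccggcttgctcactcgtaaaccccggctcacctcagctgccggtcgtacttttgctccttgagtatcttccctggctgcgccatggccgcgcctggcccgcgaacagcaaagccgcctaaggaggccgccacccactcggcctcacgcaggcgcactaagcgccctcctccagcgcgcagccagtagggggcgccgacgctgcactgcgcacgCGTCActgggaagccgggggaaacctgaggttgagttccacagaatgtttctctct
Car4: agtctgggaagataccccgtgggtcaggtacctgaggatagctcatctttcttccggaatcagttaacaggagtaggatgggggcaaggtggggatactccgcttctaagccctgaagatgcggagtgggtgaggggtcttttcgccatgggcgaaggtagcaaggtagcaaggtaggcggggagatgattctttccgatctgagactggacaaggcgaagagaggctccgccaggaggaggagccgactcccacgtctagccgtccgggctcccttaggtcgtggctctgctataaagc

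The full element TGACGTCA, its half-site TGACG, the full element with 1 free base TGACNTCA and the AP-1 site TGANTCA were searched on both strands in the 12 promoters that RefSeq gives for 8 of the 10 members. A TGACGTCA match is also a match to TGACG and to TGACNTCA. Car2 and Car8 had no entry. TGACNTCA was added to the search after the Car12 sequence had been read. The capitals in Car12 mark TGACATCA, which starts 19 bases before the start of transcription and matches TGACNTCA, a motif held by 8.83% of all 32851 promoters. In Car7 the capitals mark a half-site on the minus strand 6 bases before the first start, and 20.8% of all promoters hold that half-site. The half-site was also in the windows of Car15, 238 bases before the start, and of the second start of Car10, 147 bases before it, and neither gene passed the genotype test. The windows at the other 2 starts of Car7, at chr8:104540557-104540856 and chr8:104541059-104541358, held none of the motifs, nor did the Car4 window. The full element, held by 1.79% of all promoters, was in none of the 12 windows. These matches are of letters only, and binding of a factor was not measured here.

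In levels scaled by gene length (TPM), the family spanned more than 2 orders of magnitude in control SC mice. Car2 was highest at 334 ± 26.02 TPM (SD, n = 3) and Car11 followed at 265 ± 20.1 TPM. Car4 was at 87.7 ± 7.20 TPM, Car10 at 32.3 ± 0.55 TPM, Car12 at 29.4 ± 1.63 TPM and Car7 at 21.6 ± 2.23 TPM. The lowest were Car14 at 9.83 ± 0.88 TPM, Car15 at 6.15 ± 0.90 TPM, Car8 at 5.44 ± 0.29 TPM and Car5b at 2.97 ± 0.28 TPM. Among neighbors in this order, only Car15 and Car8 had overlapping ranges over the 3 mice.

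The places of Car7 and Car12 in that order differed among the groups. In CBP-ifKO SC mice Car7 was at 14.3 ± 1.43 TPM and Car12 at 14.1 ± 1.33 TPM, with overlapping ranges. In control EE mice Car7 reached 28.5 ± 0.83 TPM, and its range overlapped with those of Car10 (28.6 ± 0.80 TPM) and Car12 (27.1 ± 3.19 TPM). In CBP-ifKO EE mice Car7 was at 17.5 ± 1.10 TPM, above Car12 at 13.4 ± 1.49 TPM with no overlap, and Car12 overlapped with Car14 at 12.8 ± 0.37 TPM. Car2 and Car11, the leading pair, had overlapping ranges in CBP-ifKO SC and control EE mice.

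**Figure D1:**
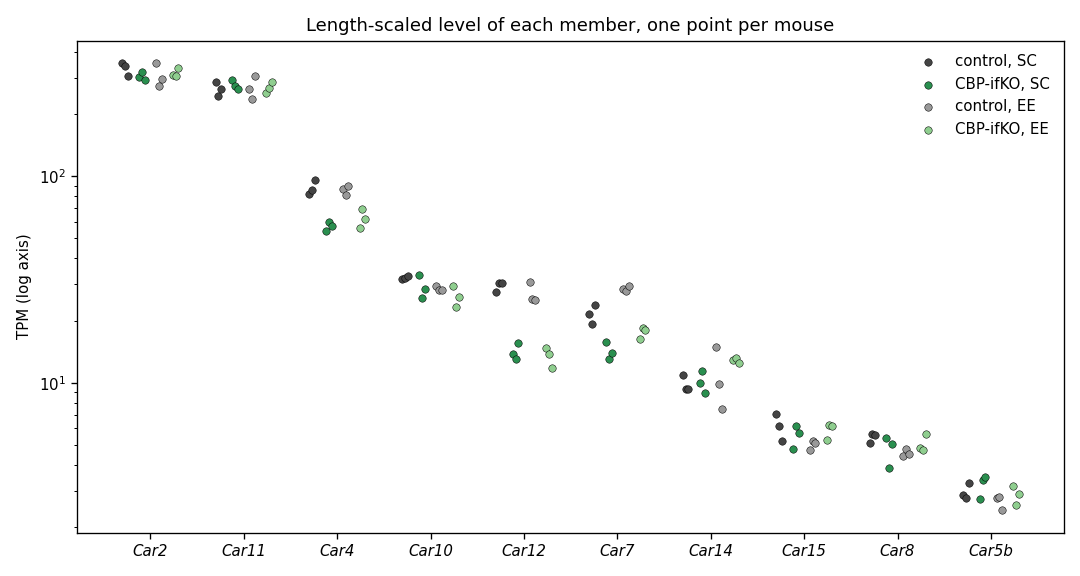
Length-scaled level of the 10 carbonic anhydrases in TPM on a log axis, one point per mouse and one color per group, ordered by mean level. Car2 and Car11 lie above 200 TPM in every mouse, and the control points of Car4, Car12 and Car7 lie above those of CBP-ifKOs in the same housing.

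The other 6 carbonic anhydrase genes that were looked up had few reads. Car1, Car3, Car5a and Car6 had 0 to 10 counts per library and did not pass the filter. Car9, a hypoxia-induced membrane enzyme, and Car13, a cytosolic enzyme, had 15 to 40 and 10 to 102 counts per library, and neither passed the test in any comparison.

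The genotype comparison asked which transcripts differ after loss of functional CBP. Among the 8 tested members, 1 was lower in CBP-ifKOs in SC and the same 1, Car4, was lower in EE, at an adjusted p below 0.05. Over all genes tested, 5.52% passed in SC and 4.57% in EE. Counted by direction, 4.02% passed as lower in SC and 3.53% in EE. The remaining 7 members did not pass in either housing.

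Car12, the transmembrane enzyme, had the largest genotype difference among the 10 members. In CPM, counts scaled to a common library size with TMM factors, it was at 54.9, 57.9 and 59.5 in control SC mice and at 25.5, 24.5 and 28.7 in CBP-ifKO SC mice. In EE it was at 61.9, 49.1 and 50.1 CPM in controls and at 27.4, 25.7 and 22.3 CPM in CBP-ifKOs. The lowest control lay far above the highest CBP-ifKO mouse in both housings. The CBP-ifKO minus control log2 fold change was -1.13 ± 0.07 (SE) in SC and -1.09 ± 0.10 in EE, which is 2.19-fold and 2.12-fold lower. Control EE mouse 1, with the high choroid plexus markers, also had the highest Car12 level, and without it the difference in EE was -0.97 ± 0.10.

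Car7, the cytosolic enzyme of neurons, was lower in CBP-ifKOs in both housings and higher in EE in both genotypes. Control SC mice were at 20.6, 17.6 and 22.3 CPM and CBP-ifKO SC mice at 14.04, 11.7 and 12.3 CPM. In EE, controls were at 27.3, 25.8 and 28.1 CPM and CBP-ifKOs at 14.5, 16.4 and 16.3 CPM. No CBP-ifKO mouse in EE reached the lowest control in SC. The genotype difference was -0.67 ± 0.11 on the log2 scale in SC (1.59-fold lower) and -0.77 ± 0.08 in EE (1.71-fold lower).

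Car4, the lipid-anchored enzyme of brain capillaries and of neuronal surfaces, fell in CBP-ifKOs in both housings. It was at 42.2, 42.1 and 48.5 CPM in control SC mice and at 26.2, 29.2 and 27.5 CPM in CBP-ifKO SC mice. In EE it was at 45.0, 40.7 and 46.2 CPM in controls and at 26.95, 33.6 and 30.6 CPM in CBP-ifKOs. All 3 CBP-ifKO mice lay below all 3 controls in each housing. Its log2 fold change was -0.68 ± 0.08 in SC (adjusted p = 5.25e-04) and -0.52 ± 0.09 in EE (adjusted p = 0.00755) by edgeR's quasi-likelihood test.

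Groups without overlap, lower in CBP-ifKOs in both housings, were seen for Car12, Car7 and Car4, and for 7.23% of the 18251 genes that passed the filter over all 12 mice. Nothing is read from this count for Car7 and Car12, which were singled out for their levels.

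**Figure D2:**
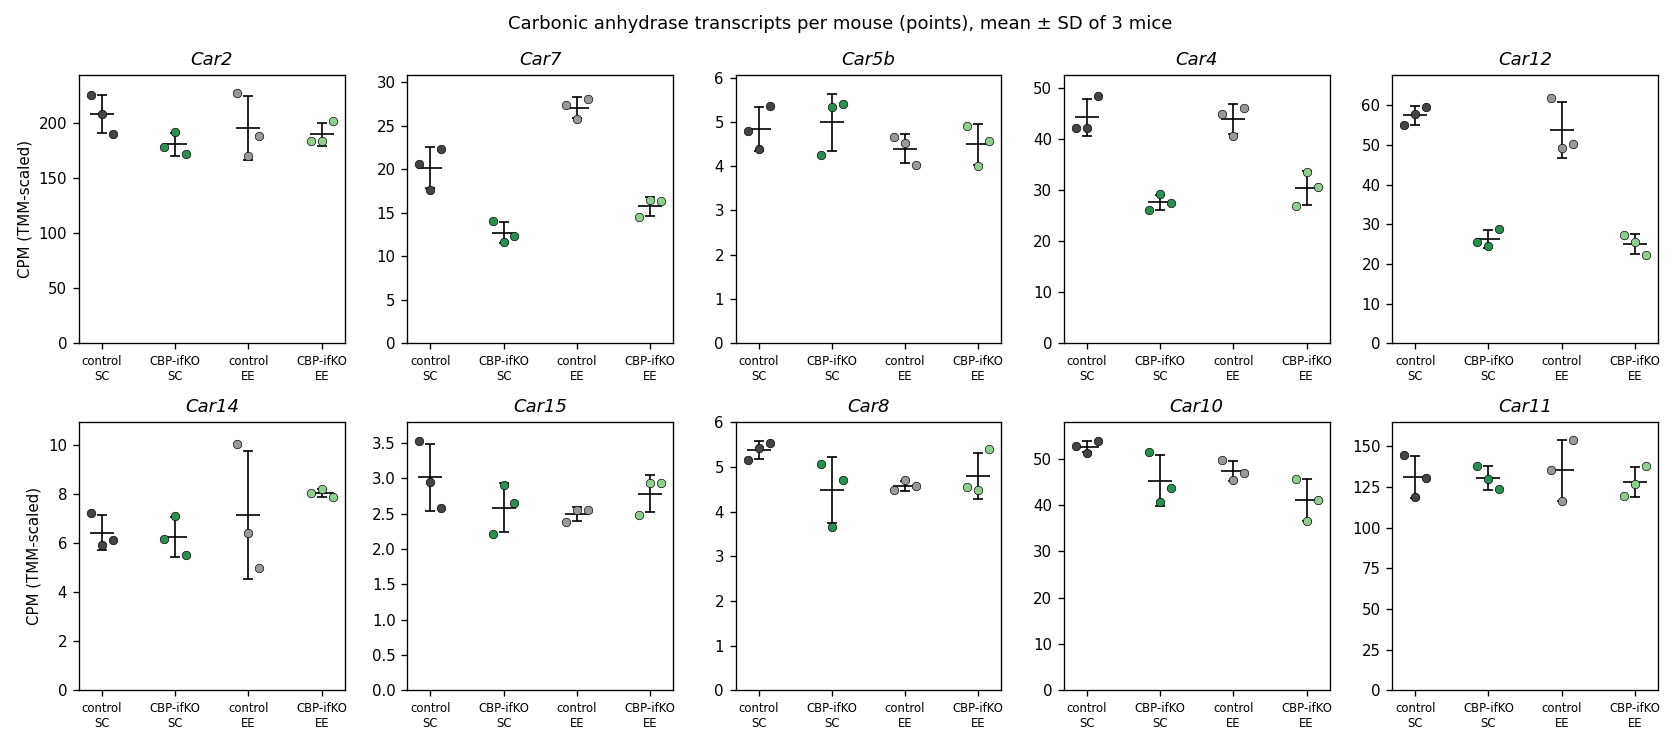
TMM-scaled CPM of each carbonic anhydrase in the 4 groups, with 1 point per mouse, a horizontal bar at the mean of 3 mice and error bars of 1 SD. Car12, Car7 and Car4 are lower in each CBP-ifKO group than in the controls of the same housing without overlap, and Car7 is higher in EE than in SC in each genotype.

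Cell type markers were measured beside these members. The summed level of 10 endothelial markers, which bear on Car4, was 263 to 284 TPM in control SC and 239 to 257 TPM in CBP-ifKO SC mice, and 226 to 265 TPM in control EE and 262 to 277 TPM in CBP-ifKO EE mice. The ranges were apart in SC, where 1 of 10 markers, Kdr, was lower in CBP-ifKOs by the test, and overlapped in EE. The summed level of 7 pyramidal cell markers was 2864 to 3150 TPM in control SC and 2257 to 2464 TPM in CBP-ifKO SC mice, and 3061 to 3428 and 2228 to 2425 TPM in EE. In both housings 4 of these 7 markers (Wfs1, Fibcd1, Spink8 and Nrgn) fell. The sum of 6 granule cell markers was 363 to 397 TPM in control SC and 309 to 327 TPM in CBP-ifKO SC mice, and 332 to 402 and 275 to 288 TPM in EE. Of these, C1ql2 and Trpc6 fell and Lct rose in SC, and C1ql2, Trpc6 and Dsp fell in EE. The TPM sums of interneuron and astrocyte markers overlapped between genotypes in SC and were lower in CBP-ifKOs in EE. The values in EE were 1644.6 to 1706.0 against 1706.5 to 1919.5 TPM and 1934 to 1946 against 1986 to 2131 TPM. Those of microglia and erythrocytes overlapped in both housings. TPM carries no TMM factors, unlike the CPM and the tests. In TMM-scaled CPM, the astrocyte markers Gfap, Aqp4, Slc1a3 and S100b were lower in CBP-ifKO SC mice without overlap. The other astrocyte markers overlapped, and none of the 8 passed in SC. Of the 8 interneuron markers, Sst fell in SC (-0.35 ± 0.08, adjusted p = 0.0324, edgeR), and none of the 8 passed in EE. In EE Sst was also lower without overlap (-0.30 ± 0.09, adjusted p = 0.0873, edgeR). The sum of 10 oligodendrocyte markers, which bear on Car2 and Car14, overlapped between genotypes in both housings. No marker of these lists was at 0 in all mice. The part of cell composition in the genotype differences of Car4, Car7 and Car12 was not tested.

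**Figure D3:**
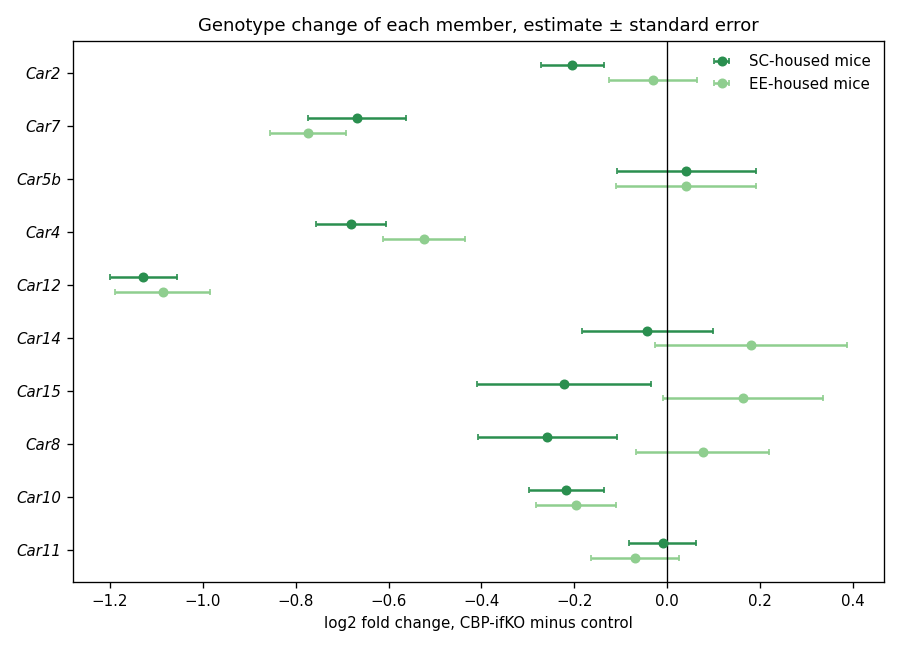
Log2 fold change of each member, CBP-ifKO minus control, in SC and in EE, with error bars of 1 standard error from the edgeR fit. Car12, Car7 and Car4 lie at -0.52 or below in both housings, whereas the other 7 members lie between -0.26 and 0.18.

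Car2, the abundant cytosolic enzyme of oligodendrocytes and choroid plexus, was at 225, 208 and 190 CPM in control SC mice and at 178, 192 and 172 CPM in CBP-ifKO SC mice. The ranges overlapped slightly, at the lowest control, and the log2 fold change of -0.20 ± 0.07 did not pass the test (adjusted p = 0.110, edgeR). Without the filter on low counts it passed (adjusted p = 0.0220). In EE it was at 227, 170 and 189 CPM in controls and at 184, 183 and 202 CPM in CBP-ifKOs, and the difference of -0.03 ± 0.10 on the log2 scale was 0.09 ± 0.08 without control EE mouse 1. Car5b, the mitochondrial enzyme, ranged from 4.001 to 5.398 CPM over all 12 mice and differed by 0.04 ± 0.15 on the log2 scale in either housing.

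Car14, a transmembrane relative of Car12, did not share its genotype difference. It was at 7.23, 5.93 and 6.13 CPM in control SC mice and at 6.15, 7.13 and 5.50 CPM in CBP-ifKO SC mice, with a log2 fold change of -0.04 ± 0.14 (adjusted p = 0.899, edgeR). In EE the 3 CBP-ifKOs were close together at 8.05, 8.21 and 7.87 CPM, whereas controls spread from 4.97 through 6.40 to 10.1 CPM. The highest control was again mouse 1, and the log2 fold change of 0.18 ± 0.21 became 0.51 ± 0.16 without it (adjusted p = 0.105, edgeR). Exons of Car14 overlap with those of Aph1a over 445 bases on the opposite strand, so its reads are uncertain where the counting ignored strand. Car15, a lipid-anchored enzyme, ranged from 2.21 to 3.52 CPM and did not pass in SC (-0.22 ± 0.19) or in EE (0.16 ± 0.17). It shares 1253 exonic bases with Gm20518 on the same strand, so its counts are uncertain too.

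**Figure D4:**
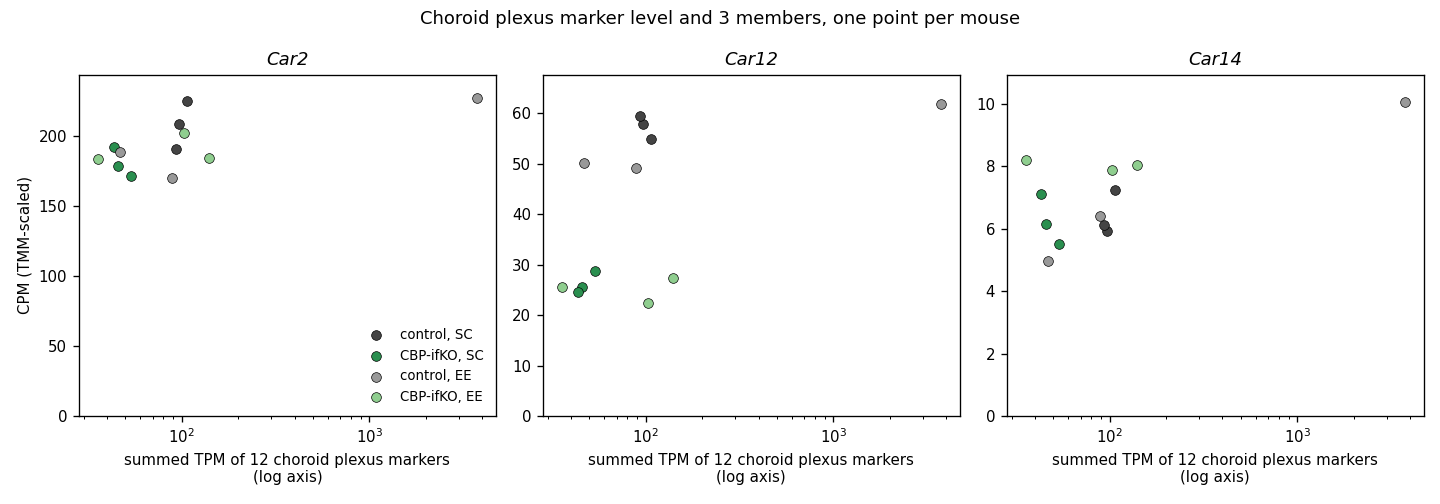
CPM of Car2, Car12 and Car14 against the summed TPM of 12 choroid plexus markers on a log axis, one point per mouse. Control EE mouse 1 lies alone at 3755 TPM on the marker axis and is the highest mouse for each of the 3 genes.

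The summed level of the choroid plexus markers also differed between genotypes in SC. The sum was 93.7 to 107 TPM in control SC and 43.3 to 53.5 TPM in CBP-ifKO SC mice, and Ttr, the transthyretin gene and one of the 12 markers, fell (-1.70 ± 0.12, adjusted p = 2.20e-05, edgeR). Without Ttr the sums overlapped, at 23.0 to 25.98 and 21.0 to 26.6 TPM. Of the 8 markers tested in SC, 7 did not pass. Among these, Kl was higher (0.22 ± 0.08) and Aqp1 lower (-0.80 ± 0.41) in CBP-ifKOs without overlap. In EE the sum was 47.0, 89.1 and 3755 TPM in controls and 35.7 to 140 TPM in CBP-ifKOs. The 2 other control EE mice, with sums of 89.1 and 47.0 TPM, had Car12 at 49.1 and 50.1 CPM. The part of choroid plexus tissue in the levels of Car2, Car12 and Car14 was not tested.

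The acatalytic members differed little between genotypes. Car10 was at 52.9, 51.3 and 53.8 CPM in control SC mice and at 51.4, 40.7 and 43.8 CPM in CBP-ifKO SC mice (log2 fold change -0.22 ± 0.08, adjusted p = 0.147, edgeR). One CBP-ifKO mouse lay within the control range, and without that mouse, CBP-ifKO SC mouse 1, Car10 passed (adjusted p = 0.0482). In EE its log2 fold change was -0.20 ± 0.09 (adjusted p = 0.233). Car8 was at 5.16, 5.44 and 5.55 CPM in control SC mice and at 5.08, 3.67 and 4.71 CPM in CBP-ifKO SC mice without overlap, as 13.8% of all genes were, but did not pass (-0.26 ± 0.15, adjusted p = 0.361, edgeR), and in EE the ranges overlapped (0.08 ± 0.14). Car11 ranged from 117 to 154 CPM, with log2 fold changes of -0.01 ± 0.07 in SC and -0.07 ± 0.10 in EE.

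Summed by location, the extracellular enzymes (Car4, Car12, Car14 and Car15) were at 133 ± 6.87 TPM in control SC, 87.1 ± 3.88 in CBP-ifKO SC, 129 ± 7.68 in control EE and 94.7 ± 7.01 in CBP-ifKO EE mice. The share of Car12 in this sum was 22.1 ± 0.87% in control SC and 16.2 ± 1.70% in CBP-ifKO SC mice, and 21.0 ± 1.36% and 14.2 ± 2.06% in EE. The share of Car4 was 65.8 ± 1.98% and 65.9 ± 0.36% in SC, and 66.7 ± 3.60% and 66.0 ± 2.65% in EE. The Car12 share was thus lower in CBP-ifKOs without overlap, whereas that of Car4 overlapped between genotypes. The acatalytic sum was between 270 and 337 TPM in every mouse. Car7 made up 6.10 ± 1.001% of the cytosolic sum with Car2 in control SC, 4.48 ± 0.54% in CBP-ifKO SC, 8.54 ± 0.97% in control EE and 5.24 ± 0.34% in CBP-ifKO EE mice.

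The housing comparison asked which transcripts differ between EE and SC. Among the 8 tested members 0 passed in controls and 0 in CBP-ifKOs by edgeR's quasi-likelihood test, and DESeq2 also called 0. Over all 18251 genes, 0% passed in controls and 0.011% in CBP-ifKOs, while 4.21% and 8.59% had an unadjusted p below 0.05. None of the 8 members had an unadjusted p below 0.05 in either genotype.

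Car7 was the only one of the 10 members with EE mice above SC mice without overlap in both genotypes, a pattern that 0.701% of the 18251 genes showed and from which nothing is read, since Car7 was singled out for it. The EE minus SC log2 fold change of Car7 was 0.42 ± 0.10 in controls (1.34-fold higher) and 0.31 ± 0.10 in CBP-ifKOs (1.24-fold higher). Some marker sums also differed between housings in CBP-ifKOs without overlap. Those of interneurons (1477 to 1601 TPM in SC, 1645 to 1706 in EE) and endothelial cells (239 to 257 and 262 to 277 TPM) were higher in EE, and those of granule cells (309 to 327 and 275 to 288 TPM) and astrocytes (2014 to 2115 and 1934 to 1946 TPM) were lower. In controls the sums of all 9 marker lists overlapped between housings, and the part of cell composition in the housing differences of Car7 and Car14 was not tested. Car12 differed by -0.10 ± 0.09 in controls and -0.06 ± 0.10 in CBP-ifKOs, with overlapping ranges. The overlap in controls came from mouse 1 in EE at 61.9 CPM, since the other EE controls lay below all 3 SC controls, and without that mouse the difference was -0.21 ± 0.09.

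The other members had smaller or less even differences between housings. Car14 was higher in EE in CBP-ifKOs without overlap, as were 7.69% of all genes (0.37 ± 0.19, adjusted p = 0.616, edgeR), and in controls its difference was 0.15 ± 0.20, or -0.18 ± 0.16 without mouse 1. Car2 differed by -0.09 ± 0.09 in controls, or -0.21 ± 0.08 without mouse 1 (adjusted p = 0.874, edgeR), and by 0.07 ± 0.09 in CBP-ifKOs. Car8, Car10 and Car15 were lower in EE than in SC in controls without overlap, by log2 fold changes of -0.23 ± 0.14, -0.15 ± 0.09 and -0.27 ± 0.18, and 4.91% of all genes were lower in that way. None of these 3 passed the test, and in CBP-ifKOs their ranges overlapped. Car4 differed by -0.01 ± 0.08 in controls and 0.14 ± 0.09 in CBP-ifKOs.

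**Figure D5:**
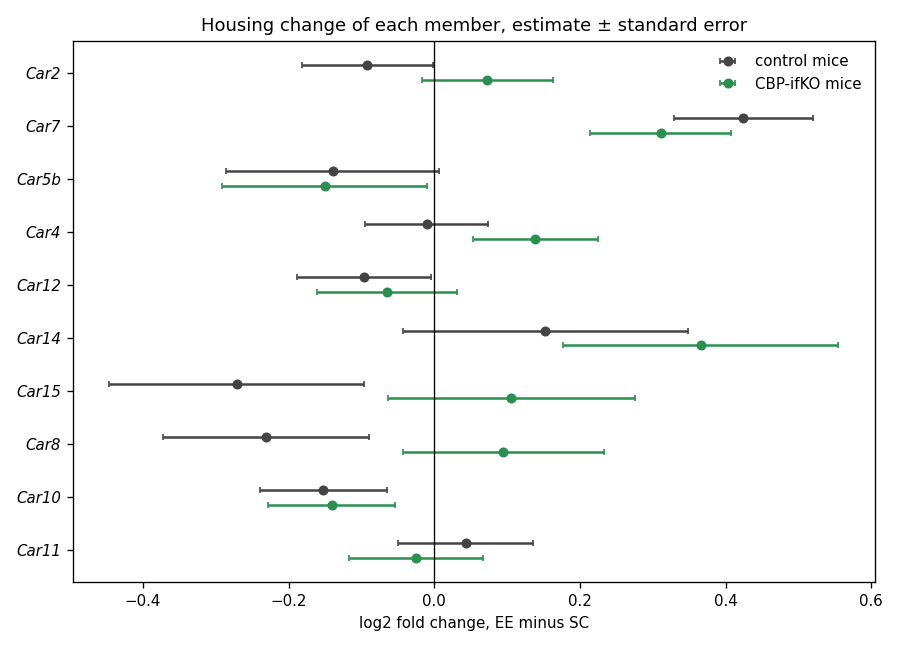
Log2 fold change of each member, EE minus SC, in controls and in CBP-ifKOs, with error bars of 1 standard error from the edgeR fit over 12 mice. Car7 lies at 0.42 in controls and 0.31 in CBP-ifKOs.

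The interaction term, the genotype difference in EE minus that in SC, passed for 0 of the 8 tested members and for 0% of all genes by edgeR. Of all genes, 3.15% had an unadjusted p below 0.05, and DESeq2 called 0 members. The term was -0.11 ± 0.14 for Car7, 0.03 ± 0.13 for Car12 and 0.15 ± 0.12 for Car4. It was 0.38 ± 0.24 for Car15, 0.33 ± 0.20 for Car8, 0.21 ± 0.27 for Car14 and 0.16 ± 0.13 for Car2. Without control EE mouse 1 it was 0.55 ± 0.21 for Car14 and 0.29 ± 0.11 for Car2 (adjusted p = 0.995 for both, edgeR), and 0.15 ± 0.12 for Car12.

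Genes that move bicarbonate, protons and chloride, or that sense acid, were examined beside the enzymes. Of 12 bicarbonate transporters, 9 were tested in SC and 10 in EE, and 1 rose in both housings. This was Slc26a11, an anion exchanger (0.55 ± 0.11, adjusted p = 0.0116 in SC and 0.45 ± 0.11, adjusted p = 0.0460 in EE, edgeR). Slc4a10, the sodium-coupled bicarbonate importer of neurons, differed by 0.01 ± 0.06 and -0.04 ± 0.07. Of 13 proton and lactate transporters 0 passed in SC and 1 in EE, the endosomal sodium-proton exchanger Slc9a9, which was lower (-0.38 ± 0.09, adjusted p = 0.0276). In SC Slc9a9 was also lower without overlap (-0.28 ± 0.09, adjusted p = 0.107, edgeR). None of 7 chloride cotransporters passed. Slc12a5, which encodes the chloride extruder KCC2, differed by -0.12 ± 0.05 in SC (adjusted p = 0.225) and -0.20 ± 0.06 in EE (adjusted p = 0.0701), and Slc12a2, which encodes the importer NKCC1, by -0.02 ± 0.07 and 0.08 ± 0.10.

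Among the genes for acid and bicarbonate sensing, Asic4, of the acid-sensing ion channel family, fell by 0.95 ± 0.15 on the log2 scale in SC (adjusted p = 0.00482) and by 0.96 ± 0.16 in EE (adjusted p = 0.00799, edgeR).

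Of the 6 binding partners of the acatalytic members, 1 was lower in SC and 0 in EE. Nrxn2 fell by 0.23 ± 0.05 on the log2 scale in SC (adjusted p = 0.0290, edgeR), and in EE it differed by -0.21 ± 0.06 (adjusted p = 0.0833). Nrxn3 differed by -0.12 ± 0.08 and -0.16 ± 0.07, and Itpr1 by -0.19 ± 0.07 and -0.20 ± 0.09, neither past the threshold. Of the 2 receptor phosphatases with a carbonic anhydrase-like domain, Ptprz1 was lower in SC (-0.25 ± 0.06, adjusted p = 0.0378) and differed by -0.13 ± 0.07 in EE, and Ptprg differed by -0.18 ± 0.08 and -0.08 ± 0.09 without passing. No gene of these lists passed in the housing comparisons or the interaction.

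The genes whose pattern over the 12 mice was most like that of Car7, by Pearson's r of log2 CPM among 18250 genes, were Nptx2 (r = 0.968), Prmt8 (r = 0.967) and Ndrg3 (r = 0.964). Nptx2, a neuronal pentraxin, was at 16.9 ± 2.48 CPM in control SC, 8.37 ± 0.48 in CBP-ifKO SC, 27.4 ± 2.06 in control EE and 13.4 ± 2.33 in CBP-ifKO EE mice. For Car12 they were Fyb2 (r = 0.987), Sept9 (r = 0.982) and Dpysl3 (r = 0.980). Within the family, Car4 was the member most like both, with r = 0.879 to Car7 and r = 0.917 to Car12, whereas Car7 and Car12 had r = 0.803 to each other. The mice share group means and library depth differences, so these coefficients are descriptions. With the group means removed, r was 0.561, 0.59997 and 0.713 for Nptx2, Prmt8 and Ndrg3 with Car7, and 0.649, 0.603 and 0.257 for Fyb2, Sept9 and Dpysl3 with Car12. Car4 then had r = 0.445 to Car7 and r = -0.00077 to Car12, Car7 and Car12 had r = -0.086 to each other, and Car11 (r = 0.643) was the member most like Car7.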

How the data were processed

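Total hippocampal RNA was sequenced as single-end 50 base reads, with 2 runs per mouse that the column names give as merged. Whether both runs entered the even CBP-ifKO counts was not tested. Per the labels and the methods, the authors used FastQC 0.11.8, Trim Galore 0.6.4, STAR 2.6.1 on mm10/GRCm38, a mapping quality above 10 and Rsubread over exons, and deposited whole-number counts of 55471 genes with gene lengths. Strandedness is not given in the sources used here. From these deposited counts, edgeR 4.0.16 (R 4.3.3) was run with TMM factors, filterByExpr, glmQLFit and glmQLFTest, with Benjamini-Hochberg adjustment over all genes that passed and a threshold of 0.05. Genotype was fitted on the 6 mice of 1 housing, and housing and interaction on all 12. CPM was scaled by TMM factors, TPM used the deposited lengths without TMM factors, and log2 CPM had a prior count of 2. The test was checked on simulated data. DESeq2 1.42.0, other filters and scalings, halved CBP-ifKO counts, the replicate block and leaving out each mouse were alternatives. Intervals from the fits cover the spread between mice.

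The members, lists, markers and motifs were chosen with earlier results of these data known. All members were named, list genes past the threshold (at most 4 per comparison and list) and a fixed set of transport and partner genes always, and the 3 genes most like Car7 or Car12. Some genes that this rule names are not reported here. Gene positions came from GENCODE on GRCm38 and promoters from RefSeq. No proteins are printed.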

Additional observations from a re-analysis of the deposited data

How the results depend on the processing

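Of the 656 values recomputed for the 8 tested members, 654 kept their side of the threshold, 2 passed it newly and 0 lost it. No value past the threshold changed sign, whereas some estimates near 0 that did not pass did. Car4 passed in every alternative in both housings, with adjusted p-values up to 0.00574 in SC and 0.0458 in EE. The number of members that passed in SC was 1, and 2 without a filter on low counts (Car2 added) and 1 to 2 when leaving out each mouse (Car10 added without CBPifKO_SC replicate 1). The cause was not tested. Leaving out mice, the genotype difference of Car12 was -1.20 to -1.08 in SC and -1.15 to -0.97 in EE, and that of Car7 was -0.76 to -0.59 and -0.81 to -0.72. After removing group means, the r of Nptx2 with Car7 was 0.561 and that of Fyb2 with Car12 was 0.649.

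The replicate number as a block left 1 member called in SC, 1 in EE and 0 in the housing and interaction comparisons, and changed no member's call. Same-numbered mice correlated from -0.07 to 0.30 in their deviations from the group means. Between control SC and control EE mice the mean was 0.18, against -0.09 for different numbers. Between the genotypes in EE it was 0.09 against -0.05, and in the other pairs of groups -0.02 to 0.04. The numbers were not taken to pair mice, but these values do not settle whether they do. Over all genes the block called 1041 in SC and 1089 in EE, against 968 and 805 without it, and 17 against 2 for housing in CBP-ifKOs. Gene counts also moved without a filter (1512 in SC, 1677 in EE, 145 and 247 for housing in controls and CBP-ifKOs, 110 for the interaction), with DESeq2 (1296 in EE, 15 and 54 for housing), with all 12 mice in EE (1293), with 6 mice for housing (1 and 21), with halved counts (0 for housing in CBP-ifKOs), and when leaving out mice (399 to 1908 in SC, 285 to 1016 in EE, 0 to 5 and 0 to 10 for housing).

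With 3 mice per group, the low members Car5b, Car8, Car14 and Car15 had standard errors of 0.14 to 0.21 in the genotype fits, which reflect the spread between mice as well as depth.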
